A study of Homo sapiens with 24 samples.

Results

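The 34 genes described here make, store and break down triglyceride. They were chosen by symbol from a list covering fatty acid uptake (4 genes), triglyceride synthesis (11 genes), the lipid droplet and its coat (12 genes) and lipolysis with its inhibitors (7 genes), and all 34 were found among the 61860 Ensembl identifiers of each count table. They were followed in 4 RNA-seq experiments with OE33, a human esophageal adenocarcinoma cell line, each with 3 treated and 3 control libraries, 24 in all. In the first, male BALB/c nude mice, bought at an age of 4 weeks, were fed for 8 weeks on normal chow (ND) or on a diet rich in fat (HFD), OE33 cells were injected under the skin, and the xenografts were taken after 3 more weeks. In the other 3, cultured OE33 cells carried HA-tagged TRIM15 or empty vector (EV) for 48 h, a short hairpin RNA against YY2 or shControl for 72 h, or a short hairpin RNA against FOXRED1 or a separate shControl for 72 h. The mice lack T cells and keep their other host cells, and all cultures are of the same line. Nothing in the labels says that the 3 libraries of a group came from separate cultures or animals, so p-values measure the spread between these libraries, which may be technical.

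Cells store fatty acids as triglyceride in lipid droplets. GPAT enzymes place the first fatty acid on glycerol-3-phosphate, AGPAT enzymes add the next, lipins remove the phosphate, and DGAT enzymes add the last fatty acid. Seipin (BSCL2) and FITM2 help droplets form, and perilipins coat them. PNPLA2 (adipose triglyceride lipase) starts lipolysis with its activator ABHD5, LIPE (hormone-sensitive lipase) and MGLL (monoglyceride lipase) follow, and G0S2 and HILPDA inhibit PNPLA2.

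Library totals ran from 14299807 to 45994561 counts, and no 2 libraries held identical values. All 37 mitochondrial genes were listed at 0. TRIM15 had 111, 130 and 181 counts with HA-TRIM15 and 0 in all 3 EV libraries. YY2 had 11, 12 and 11 counts with shYY2 against 43, 40 and 46, and FOXRED1 had 183, 207 and 129 with shFOXRED1 against 322, 259 and 254. FOXRED1 was also lower with shYY2 (log2 fold change -0.89 ± 0.06 SE). All 10 columnar epithelial markers were present in the xenografts. Of 10 adipocyte markers, 7 were at 0 in all HFD libraries and 6 in all ND libraries, ADIPOQ, LEP and CIDEA among them. The summed level of the list was 0.919 to 1.42 CPM (counts scaled to library size) with HFD against 1.5 to 1.68 with ND. Only 1 of these markers was tested, and it was called lower. AQP7 averaged 0.355 CPM with HFD against 0.822 with ND. The summed level of 10 macrophage markers was 5.35 to 6.12 CPM against 4.83 to 5.69. That of 8 endothelial markers was 65.4 to 69.4 CPM with HFD against 55.7 to 60.7 (EGFL7 and ESAM called higher), and that of 8 fibroblast markers 23.7 to 27.1 against 30.5 to 33.5 (COL1A1 called lower). Few genes made most of these sums: with HFD, CD14 averaged 5.28 CPM, EGFL7 49.5, ESAM 17.8 and COL1A1 25.5. The other endothelial markers had at most 11 counts in any xenograft library, and the other fibroblast markers at most 5. In the cultured shControl of the shFOXRED1 experiment the endothelial list summed to 67.8 to 82.4 CPM and the fibroblast list to 24.2 to 25.5. The part of these markers in the HFD results was not tested. How reads of mouse origin were treated is not given in the sources used here, and in bulk samples fewer cells of a type and less RNA per cell cannot be told apart.

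In the controls, levels per length (TPM, from counts and union exon length) were highest for the acyltransferase AGPAT2, the coat protein PLIN3 or G0S2. In ND xenografts the mean TPM of AGPAT2 was 293.6 ± 19.4 (SD, n = 3) and that of PLIN3 was 292.8, which differ by less than that spread. PLIN3 led in EV at 231.0 TPM, G0S2 in the shControl of the shYY2 experiment at 263.7 TPM, and AGPAT2 in that of the shFOXRED1 experiment at 261.8 TPM. PLIN2, the general droplet coat protein, lay at 136.2 TPM in ND and between 103.3 and 126.8 TPM in the 3 cultured controls. PLIN4 and PLIN5, perilipins best known from fat and muscle, lay at 0.57 and 0.47 TPM in the shControl of the shYY2 experiment and at 2.38 and 2.20 TPM in the shControl of the shFOXRED1 experiment, so the shControl groups were not at the same level. LPL, CIDEB, CIDEC and SPART had at most 3 counts in any library and were not tested in any experiment. All exon bases of CIDEB overlap exons of other genes in GENCODE 29, all on the opposite strand. For BSCL2 51.9% of exon bases overlap other genes, 40.6% on the same strand, and for SPART 0.97%. The way shared reads were counted is not given in the sources used here.

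**Figure D1:**
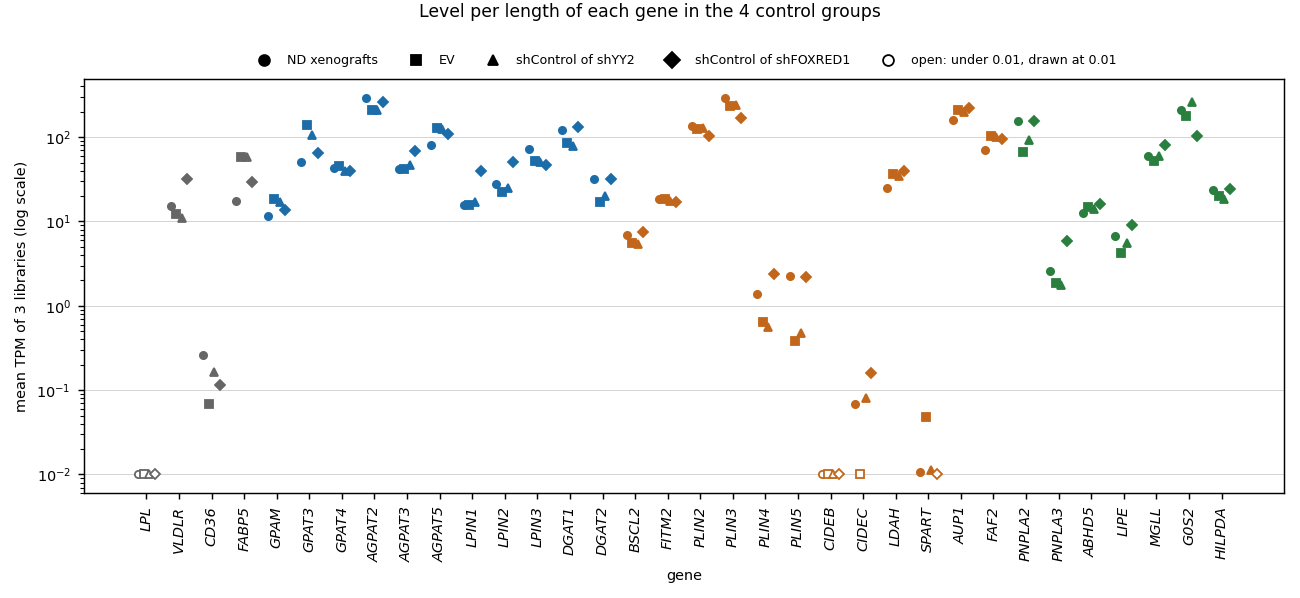
Mean level per length (TPM, log scale, 3 libraries each) of the 34 genes in the 4 control groups, coloured by role (gray uptake, blue synthesis, orange droplet, green lipolysis and its inhibitors). AGPAT2, PLIN3 or G0S2 stood highest in each group, and LPL, CIDEB, CIDEC and SPART were near 0.

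With HFD, 14 of the 30 tested genes rose and 3 fell (edgeR's quasi-likelihood test, Benjamini-Hochberg adjusted p under 0.05), where 25.6% of all genes tested rose and 23.9% fell, 49.5% called in all. The median log2 fold change of the 30 was 0.09, against -0.01 over all genes. Of the 9 tested droplet genes 5 rose and the other 4 did not pass the test. Of the 7 genes of lipolysis and its inhibitors 4 rose, the inhibitor G0S2 among them, and 1 fell, the inhibitor HILPDA. With a required fold of 1.2 the 14 became 8.

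FABP5, a carrier of fatty acids in the cytosol, measured 14.2, 14.2 and 15.3 CPM with HFD against 8.51, 7.91 and 8.14 with ND, 1.79-fold higher (log2 fold change 0.84 ± 0.08 SE, adjusted p = 1.32e-07). The groups did not overlap, which held for 19 of the 30 members and for 56.2% of all genes tested. PLIN2 measured 225, 219 and 224 CPM against 156, 153 and 154 (1.45-fold, adjusted p = 1.93e-09), again with all HFD libraries above all ND libraries. G0S2 measured 64.3, 67.5 and 61.6 CPM against 41.3, 39.9 and 40.0 (1.59-fold, adjusted p = 3.87e-09). HILPDA, the other inhibitor of PNPLA2, went the opposite way, at 8.55, 7.26 and 9.16 CPM against 10.3, 10.5 and 11.4 (adjusted p = 0.00497).

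Among the synthesis enzymes, GPAT3 rose from 39.5 ± 1.44 to 55.0 ± 2.12 CPM (SD, n = 3 each) and DGAT2 rose 1.51-fold, from 56.4 ± 4.34 to 85.7 ± 3.09 CPM. AGPAT3 rose 1.10-fold, and LPIN3 fell by 0.31 on the log2 scale. The other 7 synthesis enzymes, DGAT1 and GPAM among them, did not pass the test. LDAH, a droplet-associated hydrolase, rose 1.56-fold, and PLIN3, AUP1 and FAF2 rose 1.11-, 1.17- and 1.19-fold. MGLL rose 1.35-fold, LIPE 1.24-fold and ABHD5 1.18-fold, while PNPLA2 itself gave 144, 145 and 136 CPM against 128, 138 and 131 (adjusted p = 0.0604), a value that passed the threshold without HFD replicate 3 (0.0352) or ND replicate 2 (0.00896). VLDLR, a lipoprotein receptor, rose 1.11-fold, a call lost without HFD replicate 1 (adjusted p = 0.0746), HFD replicate 3 (0.0894) or ND replicate 3 (0.0636). The fatty acid transporter CD36 fell from a mean of 0.624 to 0.207 CPM, with 0 CPM in HFD replicate 1, and its call was lost without HFD replicate 3 (adjusted p = 0.0502) or ND replicate 1 (adjusted p = 0.0627).

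With HA-TRIM15, 6 of the 28 tested genes rose and 2 fell, where 22.1% of all genes tested were called, 12.5% higher and 9.53% lower. The changes were small apart from G0S2, which measured 54.6, 51.4 and 43.5 CPM against 32.6, 35.9 and 36.9 with EV (1.42-fold, log2 fold change 0.51 ± 0.07 SE, adjusted p = 0.000171). All HA-TRIM15 libraries lay above all EV libraries, and groups were apart for 11 of the 28 members and for 37.7% of all genes tested. The lipin LPIN1 rose 1.18-fold (adjusted p = 0.0073), while LPIN3 and DGAT1 fell by 0.20 and 0.21 on the log2 scale. GPAM, AGPAT5, LPIN2 and FAF2 rose 1.10-, 1.08-, 1.13- and 1.09-fold. PLIN2 gave 145, 139 and 135 CPM against 146, 146 and 142 and did not pass the test.

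The 6 higher genes became 3 on leaving out HA-TRIM15 replicate 2 or 3, and 2 on leaving out any of the 3 EV libraries. The 2 lower genes became 5 without HA-TRIM15 replicate 1. With a required fold of 1.2, only G0S2 was left higher and none lower. DESeq2's Wald test called 3 higher.

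With shYY2, 11 of the 29 tested genes rose and 13 fell, where 75% of all genes tested were called, 36.8% higher and 38.1% lower. The members' share was thus near the background. The largest rises of the set were in 2 perilipins. PLIN5 measured 6.39, 6.54 and 6.06 CPM with shYY2 against 0.604, 0.472 and 0.454 with shControl, 12.3-fold higher (log2 fold change 3.62 ± 0.18 SE, adjusted p = 3.84e-11). PLIN4 measured 6.33, 6.06 and 6.06 CPM against 0.769, 0.709 and 1.01 (7.30-fold, adjusted p = 2.77e-10). Neither pair of groups overlapped, as in 26 of the 29 members and 76.3% of all genes tested. PLIN2 went the other way, from 148, 144 and 144 CPM to 88.0, 90.3 and 93.3 (adjusted p = 2.15e-11), and PLIN3 rose 1.31-fold.

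On the scale of TPM, PLIN4 and PLIN5 together made 2.51% ± 0.05 of the 4 perilipins PLIN2 to PLIN5 with shYY2 against 0.285% ± 0.04 with shControl (SD, n = 3 each), and PLIN2 made 19.8% against 34.8%. The groups did not overlap in either share (exact two-sided permutation test, p = 0.1, the smallest that 3 against 3 libraries can give). PLIN3 stayed the most abundant of the 4, at 317.4 TPM with shYY2.

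PLIN4 and PLIN5 lie side by side on the minus strand of chromosome 19. Of their neighbours in gene order with shYY2, AC011498.4, whose exons overlap 21.7% of the exon bases of PLIN5, rose by 2.65 on the log2 scale at low level (0.943 against 0.146 CPM). LRG1 rose by 0.66, SEMA6B by 2.93, TNFAIP8L1 by 0.89, UBXN6 by 0.82 and HDGFL2, next to PLIN4, by 0.27. CHAF1A fell by 1.25 and SH3GL1 had a log2 fold change of 0.00. These changes stand beside 75% of all genes tested called with shYY2. Of the adipocyte markers, AQP7, a glycerol channel, went from 1, 4 and 5 counts to 49, 62 and 73, and PLIN1 from 4, 4 and 5 to 21, 10 and 20, while ADIPOQ and CIDEA were at 0 in all 6 libraries. The summed level of the list was 5.16 to 6.88 CPM with shYY2 against 0.604 to 1.00. The fibroblast list summed to 42.4 to 43.9 CPM against 10.5 to 11.3 (COL1A1 4.01-fold higher) and the endothelial list to 68.6 to 71.6 against 39.6 to 45.3 (EGFL7 2.10-fold higher). Single genes made most of these sums: COL1A1 averaged 42.7 CPM against 10.6, and EGFL7 53.6 against 25.6. With shYY2 the fibroblast markers PDGFRA and THY1 and the endothelial markers KDR and CLDN5 were at 0. The part of these lists in the result was not tested.

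The 250 bases before the start of both perilipins are shown because these genes moved most, followed by those of the lipase PNPLA2, its inhibitor G0S2 and PLIN2, which moved in opposite directions with shYY2. The sequences are RefSeq's, on GRCh38.p14, read 5′ to 3′ along the gene: PLIN5 at chr19:4535225-4535474 and PLIN4 at chr19:4518487-4518736, both on the minus strand, PNPLA2 at chr11:818664-818913 and G0S2 at chr1:209675162-209675411, both on the plus strand, and PLIN2 at chr9:19127493-19127742 on the minus strand. Capitals mark matches to any of the 7 motif spellings searched.
PLIN5: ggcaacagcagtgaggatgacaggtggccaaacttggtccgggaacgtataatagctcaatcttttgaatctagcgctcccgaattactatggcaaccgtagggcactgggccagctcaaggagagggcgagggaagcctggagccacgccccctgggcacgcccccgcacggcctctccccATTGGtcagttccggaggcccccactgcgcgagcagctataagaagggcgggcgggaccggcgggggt
PLIN4: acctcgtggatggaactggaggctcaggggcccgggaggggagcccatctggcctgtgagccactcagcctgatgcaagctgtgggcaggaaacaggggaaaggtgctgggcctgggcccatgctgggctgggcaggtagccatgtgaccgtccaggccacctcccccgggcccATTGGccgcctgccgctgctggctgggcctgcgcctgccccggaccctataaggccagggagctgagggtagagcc
PNPLA2: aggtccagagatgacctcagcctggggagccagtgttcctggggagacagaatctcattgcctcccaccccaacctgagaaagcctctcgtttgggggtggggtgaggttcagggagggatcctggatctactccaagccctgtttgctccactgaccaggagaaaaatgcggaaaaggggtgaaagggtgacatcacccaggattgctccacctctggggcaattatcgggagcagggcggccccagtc
G0S2: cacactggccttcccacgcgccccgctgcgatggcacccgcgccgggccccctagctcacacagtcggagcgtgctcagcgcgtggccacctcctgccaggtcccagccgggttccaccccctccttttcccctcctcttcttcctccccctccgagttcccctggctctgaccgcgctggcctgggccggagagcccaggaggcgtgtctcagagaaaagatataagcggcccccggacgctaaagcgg
PLIN2: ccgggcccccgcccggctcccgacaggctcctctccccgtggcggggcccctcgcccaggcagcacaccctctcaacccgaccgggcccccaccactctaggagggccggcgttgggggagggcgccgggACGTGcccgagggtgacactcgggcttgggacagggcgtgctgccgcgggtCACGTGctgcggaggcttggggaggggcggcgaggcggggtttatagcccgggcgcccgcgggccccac

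Of the 34 genes, 24 had 43 such windows in the RefSeq table, and 35116 windows of all genes gave the background. On both strands, CCAAT was found in 8 of the 43 windows (18.6%) against 32% of all windows, among them PLIN4 and PLIN5. The hypoxia core ACGTG was found in 5 (11.6%, against 18.5%), and the E-box CACGTG, which contains it, in 4 (9.3%, against 6.34%), with both in PLIN2. The YY motif AANATGGC was found in 1 window (2.33%, against 3.86%), that of BSCL2. The forkhead motif TGTTTAC was found in none (background 2.98%), nor was the PPAR motif, AGGTCA repeated after a gap of 1 base (0.0171%). Its looser spelling, with AGGNCA in place of AGGTCA, searched after the counts of the other 6 had been seen, was found in none either (0.268%). A match is a description of these letters only.

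Lipolysis genes split with shYY2. PNPLA2 measured 241, 243 and 238 CPM against 83.3, 81.6 and 77.2, 2.99-fold higher (log2 fold change 1.58 ± 0.03 SE, adjusted p = 2.03e-15). Its inhibitors fell: G0S2 from 51.5, 50.8 and 52.0 CPM to 21.1, 20.3 and 20.0 (adjusted p = 8.31e-13), and HILPDA from 8.46, 8.80 and 8.42 to 5.42, 5.10 and 5.30 (adjusted p = 1.30e-05). In none of the 3 genes did the groups overlap. The ratio of summed HILPDA and G0S2 to PNPLA2, in TPM, was 0.418 ± 0.010 with shYY2 against 3.03 ± 0.14 (SD, n = 3 each). LIPE measured 10.7, 11.1 and 9.47 CPM against 6.81, 6.44 and 6.4 (1.59-fold, adjusted p = 1.75e-05). MGLL rose by 0.16 and ABHD5 fell by 0.30 on the log2 scale. PNPLA3 was called higher at low level (1.90 against 1.29 CPM, adjusted p = 0.0352) with overlapping groups, and the call was lost without shYY2 replicate 2 (adjusted p = 0.173) or 3 (0.0676) and without shControl replicate 2 (0.0948) or 3 (0.0925).

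Of the 11 synthesis enzymes, 6 fell and 3 rose with shYY2 and the other 2 did not pass the test, which is 81.8% called beside 75% of all genes. The carrier FABP5 also fell. FABP5 measured 5.54, 5.58 and 5.19 CPM against 29.5, 25.0 and 28.2 (5.08-fold lower, adjusted p = 1.34e-12). AGPAT5 measured 54.6, 55.8 and 54.6 CPM against 133, 134 and 129 (2.40-fold lower, adjusted p = 2.55e-14). GPAM, the mitochondrial GPAT, measured 20.7, 22.4 and 19.1 CPM against 37.3, 35.8 and 41.0, and GPAT3 49.2, 50.4 and 46.7 against 81.9, 79.3 and 85.6. None of these groups overlapped. AGPAT3, GPAT4 and LPIN2 were lower as well, whereas AGPAT2, DGAT1 and DGAT2 rose by 0.50, 0.35 and 0.43 on the log2 scale. FITM2, which partitions new triglyceride into droplets, measured 32.3, 34.8 and 33.4 CPM against 18.3, 18.2 and 18.2 (1.84-fold, adjusted p = 8.05e-10). AUP1 and FAF2 fell by 0.37 and 0.31 on the log2 scale.

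With shFOXRED1, 6 of the 29 tested genes rose and 7 fell, where 36.6% of all genes tested were called, 16.8% higher and 19.7% lower. PNPLA2 measured 200, 190 and 159 CPM against 133, 133 and 124 (1.41-fold, adjusted p = 4.03e-05), with no overlap, as in 14 of the 29 members and 46.7% of all genes tested. HILPDA measured 14.8, 17.8 and 16.5 CPM against 10.1, 10.6 and 12.0 (1.51-fold, adjusted p = 0.000786). G0S2 gave 19.5, 18.3 and 15.2 CPM against 17.6, 21.2 and 19.2 and did not pass the test. ABHD5 and MGLL fell by 0.60 and 0.40 on the log2 scale.

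GPAT3 measured 31.8, 34.6 and 34.8 CPM with shFOXRED1 against 50.2, 47.2 and 49.4 (1.45-fold lower, adjusted p = 1.68e-05), and AGPAT5 74.2, 79.6 and 88.2 against 108, 112 and 115 (1.39-fold lower, adjusted p = 2.86e-05). GPAT4, AGPAT3 and LPIN3 rose by 0.22, 0.27 and 0.31 on the log2 scale. FABP5 measured 10.9, 7.08 and 7.66 CPM against 12.9, 13.5 and 13.2 (adjusted p = 0.00297), and VLDLR fell 1.30-fold. FAF2 fell by 0.19 on the log2 scale and was the only droplet gene of the 9 tested that was called. PLIN2 (113, 118 and 123 CPM against 113, 114 and 118), PLIN4 and PLIN5 did not pass the test. LIPE was called higher (15.5, 15.8 and 10.6 CPM against 11.3, 9.89 and 9.99, adjusted p = 0.0265), but its groups overlapped and the call was lost without shFOXRED1 replicate 1 (adjusted p = 0.106) or 2 (0.129) and without shControl replicate 2 (0.0942) or 3 (0.0843). The call of GPAT4 was lost without shFOXRED1 replicate 2 (adjusted p = 0.101) or shControl replicate 1 (0.0932), and that of FAF2 without shControl replicate 2 (0.0564).

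**Figure D2:**
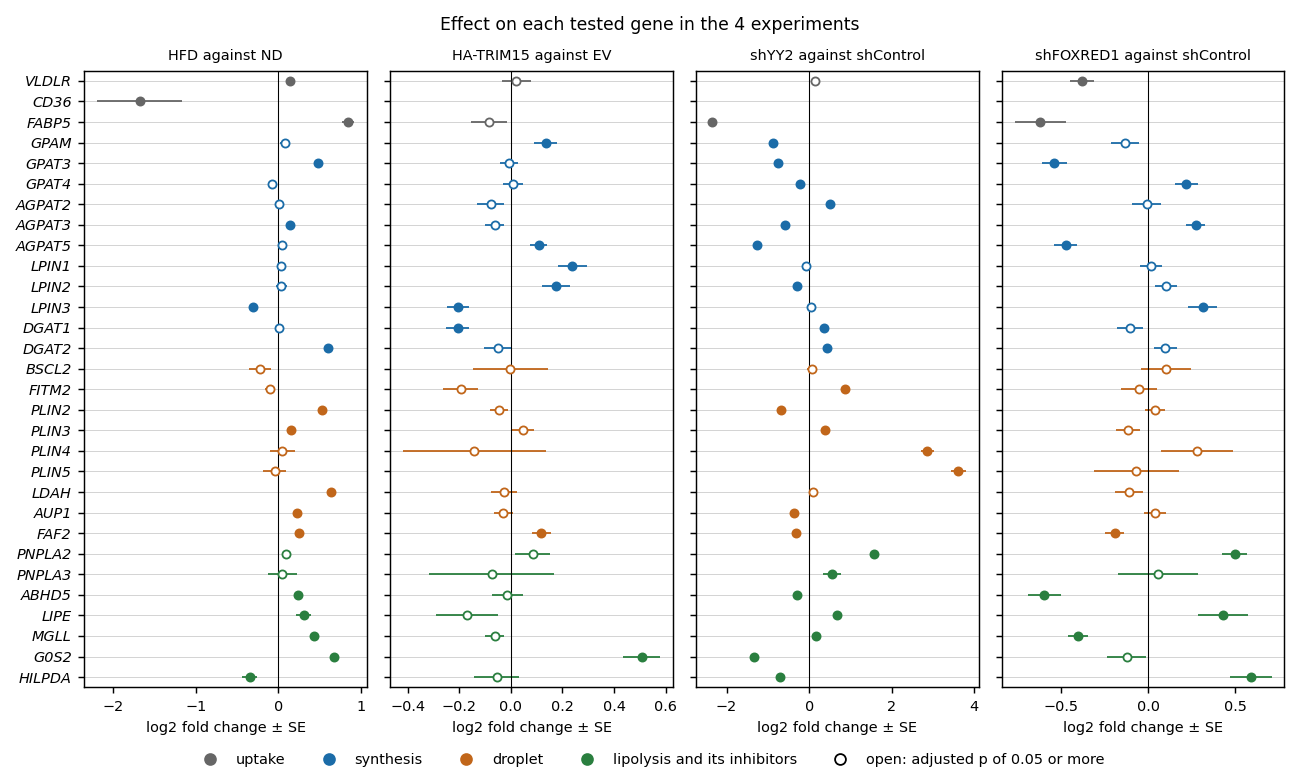
Log2 fold change (edgeR, ± SE) of the 30 tested genes in the 4 experiments, treated against control. Filled points passed an adjusted p of 0.05, colours give roles, and the x axes differ between panels. PLIN4 and PLIN5 stood far to the right with shYY2, and no effect of HA-TRIM15 was larger than that on G0S2 (0.51).

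**Figure D3:**
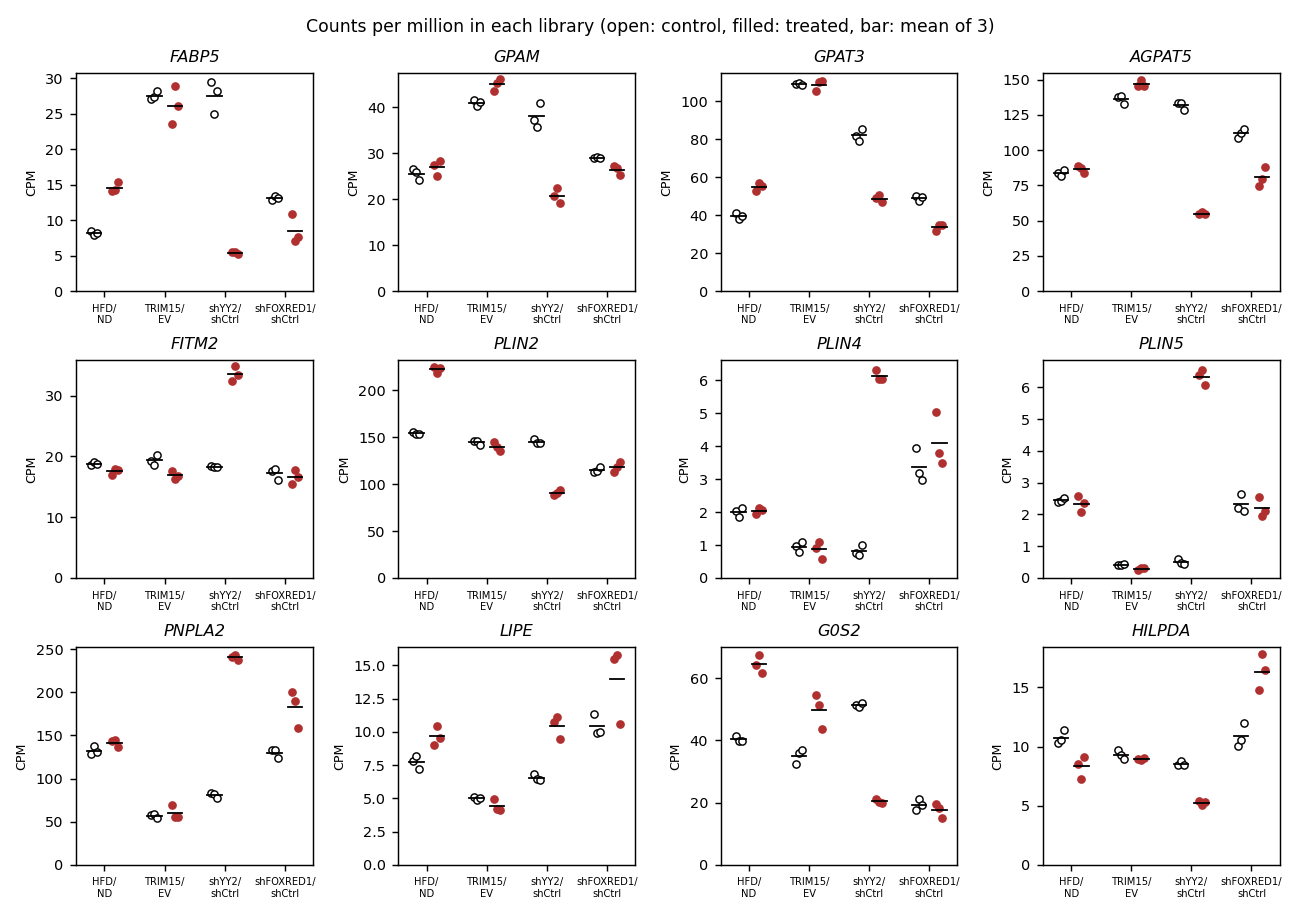
CPM of 12 genes in every library, controls open and treated filled, with the mean of 3 as a bar and the y axes starting at 0. PLIN4, PLIN5 and PNPLA2 rose with shYY2 while G0S2, FABP5 and AGPAT5 fell.

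Effects were compared in a joint fit of the 24 libraries. Between HFD and HA-TRIM15 12 of 30 genes differed in effect (28.4% of all genes), 11 of them with the larger log2 fold change under HFD. For PLIN2 the difference was 0.58 ± 0.05 SE on the log2 scale (adjusted p = 2.11e-10) and for FABP5 0.93 ± 0.13, whereas for G0S2 it was 0.17 ± 0.10 (adjusted p = 0.202), a value that does not show equal effects. Between HA-TRIM15 and shYY2 25 of 30 differed (57.4% of all genes), and between shYY2 and shFOXRED1 24 of 30 (55.5%). For PNPLA2 the effect of shYY2 exceeded that of shFOXRED1 (difference 1.124 ± 0.09 SE on the log2 scale, adjusted p = 7.31e-12). For HILPDA, which fell with shYY2 and rose with shFOXRED1, the difference was -1.25 ± 0.14 (adjusted p = 7.51e-09). The difference for LIPE was 0.28 ± 0.17 and did not pass the test.

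Of the 30 tested genes, 17 were called higher in 1 experiment and lower in another (56.7%), beside 32.8% of the 17730 genes tested in any experiment. The 17730 include genes tested in 1 experiment only, whereas 28 of the 30 were tested in all 4. The shares are thus not on a like basis. For VLDLR, GPAM, GPAT4, AGPAT5 and LPIN2, among the 17, the call in 1 direction was lost on leaving out single libraries. FAF2, an adaptor in protein degradation at the droplet, was the only member called in all 4 experiments, beside 5.56% of the 17730. FAF2 was higher with HFD and HA-TRIM15 and lower with shYY2 and shFOXRED1. Its call with HA-TRIM15 was lost on leaving out HA-TRIM15 replicate 2 (adjusted p = 0.0993) or 3 (0.0686), or any of EV replicates 1 (0.117), 2 (0.141) and 3 (0.0514), and its call with shFOXRED1 without shControl replicate 2 (0.0564). Between HFD and shYY2, 13 genes were called in both, of which 8 were higher with HFD and lower with shYY2, 4 higher in both and 1 lower in both. Over all 6464 genes called in both, the shares were 31.4%, 24.6% and 20.8%. Of the 6 genes called with both HA-TRIM15 and shYY2, none had the same direction, beside 52.2% of the 2868 genes so called. The HA-TRIM15 calls of GPAM, AGPAT5, LPIN2 and FAF2 among these 6 were each lost on leaving out any EV library (adjusted p = 0.0961, 0.152 and 0.135 for GPAM without EV replicates 1, 2 and 3, 0.110, 0.0778 and 0.213 for AGPAT5, and 0.108, 0.122 and 0.0808 for LPIN2), and those of G0S2 and DGAT1 were not. Of the 3 genes called with both HFD and HA-TRIM15, 2 were higher and 1 lower in both (same direction in 69% of all genes so called). Of the 11 called with both shYY2 and shFOXRED1, 2 were higher and 5 lower in both (70.5%). Of the 10 called with both HFD and shFOXRED1, 2 were higher in both, 6 rose only with HFD and 2 only with shFOXRED1 (26.2%). None of the 3 called with both HA-TRIM15 and shFOXRED1 had the same direction (40.8%). These experiments have separate controls.

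The ratio of the summed inhibitors to PNPLA2, in TPM, lay apart from the controls in all 4 experiments. How often ratios of other genes do so was not counted. HILPDA plus G0S2 over PNPLA2 was 2.13 with HFD against 1.51 with ND, 3.97 with HA-TRIM15 against 3.04 with EV, and 0.595 with shFOXRED1 against 0.817, beside the fall with shYY2 given above. In each the groups did not overlap (exact two-sided permutation test, p = 0.1 each, the smallest possible). In TPM, G0S2 was the larger inhibitor in every group. In CPM the means with shFOXRED1 were 17.6 for G0S2 and 16.3 for HILPDA, and HILPDA was the higher in replicate 3 (16.5 against 15.2). The parts of the ratio did not move together. HILPDA fell with HFD (16.8 TPM against 23.4) while G0S2 rose. With HA-TRIM15 only G0S2 was called. With shFOXRED1 HILPDA rose (36.9 TPM against 24.0), G0S2 was not called and PNPLA2 rose. The size of the ratio rests on division by length: on counts it was 0.514 against 0.387 with HFD, 0.981 against 0.779 with HA-TRIM15, 0.107 against 0.745 with shYY2 and 0.187 against 0.233 with shFOXRED1, in the same directions, with a group mean below 1 in all 8 groups. DGAT2 made 28.8% of the 2 DGAT enzymes with HFD against 21.1%, and GPAT3 made 57.3% of GPAM, GPAT3 and GPAT4 against 48.3%. The DGAT2 share was also higher, without overlap, with HA-TRIM15 (18.3% against 16.7%) and shFOXRED1 (22.0% against 19.5%). With shYY2 its groups overlapped (21.4% against 20.4%). With shFOXRED1 the GPAT3 share was 43.2% against 54.8%. It was also lower, without overlap, with shYY2 (58.6% against 64.7%) and HA-TRIM15 (67.7% against 68.5%).

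**Figure D4:**
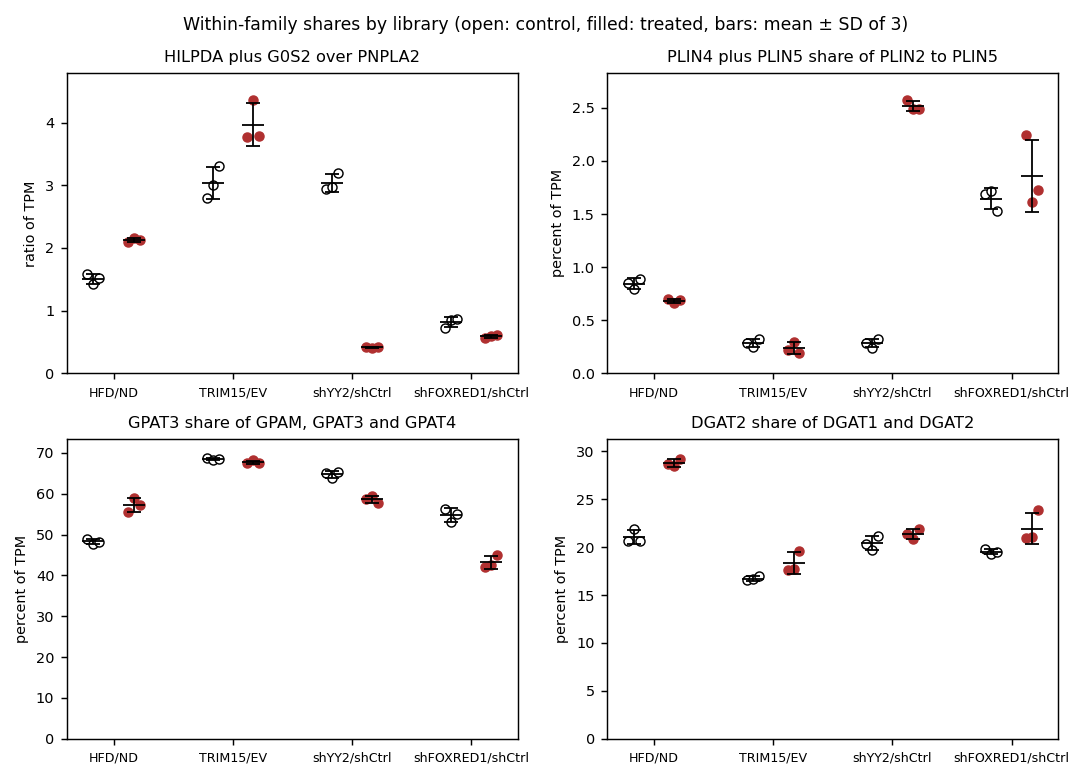
Ratio of HILPDA plus G0S2 to PNPLA2 and 3 within-family shares (TPM) by library, controls open and treated filled, with mean ± SD of 3 as bars. The ratio was higher with HFD and HA-TRIM15 than in their controls and lower with shYY2 and shFOXRED1.

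The counts that follow stand beside the shares of all genes given above for each experiment. Among 74 other genes of these pathways, 15 of 52 tested rose and 16 fell with HFD, 14 of 51 rose and 3 fell with HA-TRIM15, 19 of 52 rose and 22 fell with shYY2, and 8 of 50 rose and 16 fell with shFOXRED1. The fatty acid transporter SLC27A1 rose 4.69-fold with shYY2 and 1.70-fold with shFOXRED1, FABP3 rose 4.29-fold with shYY2, and the endothelial lipase LIPG was 3.95-fold lower with shYY2 and 1.59-fold higher with HFD. With shFOXRED1, CAV1 and CAVIN1, which form caveolae, were 2.72- and 2.46-fold lower. Of the PPAR target genes, 7 of 14 rose and 1 fell with shYY2, led by PDK4 at 7.60-fold (all genes 36.8% higher and 38.1% lower), while 6 of 15 rose and 5 fell with HFD (all genes 25.6% and 23.9%), 4 of 14 rose with HA-TRIM15 (all genes 12.5%), and 1 of 14 rose and 4 fell with shFOXRED1 (all genes 16.8% and 19.7%). Of the hypoxia genes, 11 of 24 rose and 5 fell with HFD, 5 of 24 rose and 5 fell with HA-TRIM15, 10 of 25 rose and 10 fell with shYY2, and 6 of 23 rose and 5 fell with shFOXRED1. The PPAR list leaves out known targets that are members: PLIN2, PLIN4, PLIN5, CIDEC, PNPLA2, G0S2, CD36, LPL and HILPDA. With shYY2, PLIN4, PLIN5 and PNPLA2 rose, PLIN2, G0S2 and HILPDA fell, and CIDEC, CD36 and LPL were not tested. The hypoxia list leaves out PLIN2 and VLDLR, which rose with HFD, and HILPDA, which fell.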

How the data were processed

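Per the labels, poly(A) RNA of OE33 xenografts and cultures was sequenced. The deposited values are whole-number read counts for each gene, in a separate table for every experiment, which the authors had not normalized. The aligner, counter, annotation and strand setting are not given in the sources used here; the submitters' processing notes name hg 38 and mm 10. Columns were matched to samples by name, and in the HA-TRIM15 table by position under its header. The members, lists and tests were chosen with earlier results of these data known.

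Genes passing filterByExpr (minimum count 10, minimum total 15) were fitted per experiment with edgeR 4.0.16 (TMM, quasi-likelihood F test, Benjamini-Hochberg over all genes, threshold 0.05, R 4.3.3), and effects were compared in a joint fit of 24 libraries. SE was |log2 fold change| over the root of F. CPM used TMM-scaled library sizes, and TPM used GENCODE 29 exon lengths without TMM. DESeq2 1.42.0 was an alternative. Scripts were tested on simulated data. Called members that averaged 1 CPM or more and whose groups did not overlap were ranked by size of change, and 12 are shown in every library; from other lists, at most 3 called genes per experiment were eligible to be named. The shares of PLIN4 plus PLIN5 and of GPAT3, and the differences of effect per gene, were added after the data were seen. All 7 motif spellings were chosen by hand during the analysis and none was in the written design: 6 were searched together, and the looser PPAR spelling afterwards. Same-numbered libraries were checked for shared deviations: over all tested genes no experiment had all 3 correlations above 0.1, whereas over genes above 200 counts shFOXRED1 gave 0.24, 0.128 and 0.436. There, replicates 1 and 2 also correlated across numbers (0.18 and 0.215). Replicate 3 of either arm gave -0.349 to -0.212 with replicates 1 and 2 of the other. Deviations were taken from the mean of each arm, so these correlations depend on each other. They cannot tell whether the pattern was particular to shared numbers. The labels do not say that numbers mark a shared batch.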

Additional observations from a re-analysis of the deposited data

How the results depend on the processing

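With DESeq2 size factors and with at least 10 counts in every library, all 11 counts of genes stayed within 1.5 times the reported ones, and so did all 11 with replicate number as a block. With HFD 14 genes were higher, 15 with the replicate block and 8 at a fold of 1.2. With HA-TRIM15 6 were higher, 5 with the block, 3 with no filter, 3 with DESeq2's Wald test and 1 at a fold of 1.2 (0 lower), and 2 to 5 higher and 2 to 5 lower when single libraries were left out. Without HA-TRIM15 replicate 1, AGPAT2 (adjusted p = 0.00565), FITM2 (0.0256) and MGLL (0.0493) were added as lower. The replicate block ended the call of GPAM with HA-TRIM15 (adjusted p = 0.06) and the difference for GPAT3 between shYY2 and shFOXRED1 (0.0577), and added PNPLA2 with HFD (0.0457) and VLDLR with shYY2 (0.0378). It also added a difference for LPIN1 between HFD and HA-TRIM15 (0.025). It changed no other call of a gene or difference and none within the shFOXRED1 comparison, where same-numbered libraries correlated over highly counted genes only. DESeq2's Wald test ended VLDLR with HFD (0.0526), GPAM, AGPAT5 and LPIN2 with HA-TRIM15 (0.159, 0.0709, 0.0971), PNPLA3 with shYY2 (0.221) and LIPE with shFOXRED1 (0.0608), and added PNPLA2 with HFD (0.0412), as did no filter (0.0453). VLDLR with shYY2 also passed with DESeq2 size factors (0.044) and at least 10 counts (0.0309).

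Values near 0 that were not called changed sign. With at least 10 counts in every library the log2 fold change was -0.0045 for AGPAT2 and -0.0049 for DGAT1 with HFD and 0.0040 for AGPAT2 with shFOXRED1, and with no filter -0.0045 for GPAT4 with HA-TRIM15. Without division by length the GPAM share with shFOXRED1 differed by -0.89 percentage points, in place of 0.50. Of the other 27 shares and ratios, 11 moved by more than 1 SD in that setting and kept their direction, among them all 4 ratios over PNPLA2 and PLIN4 plus PLIN5 with shYY2 (4.17% against 0.452%), and the LPIN1 share with shYY2 changed sign within its SD (0.12 in place of -0.24). Leaving out single libraries gave, with HFD, AGPAT2 -0.0206 to 0.0659, LPIN1 -0.0140 to 0.0896, LPIN2 -0.0223 to 0.0934, DGAT1 -0.0163 to 0.0385, PLIN4 -0.0211 to 0.0995, PLIN5 -0.107 to 0.0189, PNPLA3 -0.0531 to 0.192; with HA-TRIM15, VLDLR -0.00298 to 0.0474, GPAT3 -0.0212 to 0.0167, GPAT4 -0.0153 to 0.0281, BSCL2 -0.122 to 0.10, PLIN3 -0.0227 to 0.0842, PLIN4 -0.319 to 0.0650, LDAH -0.0656 to 0.00759, PNPLA2 -0.0317 to 0.143, PNPLA3 -0.279 to 0.156, ABHD5 -0.0641 to 0.0132; and with shFOXRED1, AGPAT2 -0.0986 to 0.0992, LPIN1 -0.0165 to 0.0669, PLIN5 -0.189 to 0.0341, PNPLA3 -0.183 to 0.239. The difference between HFD and HA-TRIM15 ran from -0.013 to 0.38 for PLIN4 and from -0.037 to 0.14 for PNPLA2. The cause of these changes was not tested. Counts at or near 0 limit LPL, CIDEB, CIDEC, SPART and CD36.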
